A study of Drosophila melanogaster with 8 samples.

Results

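Flies labelled as carrying control mitochondrial DNA were compared with and without FOXO knockdown, in RNA from Drosophila melanogaster intestinal stem cells. The comparison used the 4 libraries of those groups, 2 per group, out of 8 in the series, and covered all 17473 genes of the deposited count table. The control group was labelled Control mtDNAs, and the knockdown group Control mtDNAs, FOXO knockdown. The other 4 libraries, labelled Mutant mtDNAs with and without FOXO knockdown, entered the fit and are described only where the response to the knockdown is set beside that on control mtDNA. Per the labels' protocols, formaldehyde-fixed samples were sonicated and mixed with anti-FLAG beads, and the RNA carried by pAbp, the poly(A)-binding protein, was extracted. The driver of the knockdown and of the tagged protein, the RNAi line, the age and sex of the flies and the mtDNA mutation are not given in the sources used here. Nor is it given whether the replicates came from separate crosses or dissections, so p-values measure the spread between these libraries, which may be technical.

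FOXO is the transcription factor at the end of the insulin pathway. When insulin signalling is strong, Akt phosphorylates FOXO and keeps it in the cytoplasm, and when signalling is weak FOXO enters the nucleus and activates genes such as Thor, which encodes the translational repressor 4E-BP, and InR, which encodes the insulin receptor. In the fly midgut, stem cells renew enterocytes, which secrete digestive enzymes and take up nutrients, and enteroendocrine cells, which release peptide hormones.

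The foxo transcript itself did not fall past the threshold in the libraries labelled FOXO knockdown. Its level was 43.3 and 61.9 CPM (read counts scaled to a common library size) in control replicates 1 and 2 and 52.1 and 48.1 CPM in knockdown replicates 1 and 2. Both knockdown values lay between the control values. The fitted log2 change was -0.28 ± 0.13 (SE), with an adjusted p of 0.517 by edgeR's quasi-likelihood test. RNA held by the tagged binding protein in the labelled cells and foxo RNA from other cells of the gut could not be told apart here, and FOXO protein was not measured. The groups are therefore called by their labels.

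The libraries differed in ribosomal RNA content. Reads of nuclear rRNA genes made up 18.16% of the counts in control replicate 1, against 79.44% in control replicate 2 and 82.34% and 80.58% in knockdown replicates 1 and 2. Outside rRNA, the counts came to 32186975 and 5280149 in the controls and 4340214 and 4103725 with the knockdown. The fit therefore held a term for low or high rRNA share. Both low-rRNA libraries of the series were controls for the knockdown, 1 with control and 1 with mutant mtDNA, so the term was estimated from those 2 groups together. Between the low-rRNA and high-rRNA libraries, 30.3% of the 11561 genes tested differed at an adjusted p under 0.05, and without the term the low-rRNA library cannot be told apart from the control condition. The floor that 3 counts set was 0.0239 CPM in control replicate 1 and at most 0.191 CPM in the other 3 libraries. It covers counting error only.

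Summed markers of progenitor cells, among them esg and Dl, were 322 and 321 CPM in the controls and 331 and 331 CPM with the knockdown. None of the 10 passed the test. Summed enterocyte markers were 8120 CPM in control replicate 1, far above the 3030, 3460 and 3790 CPM of the other 3 libraries. Digestive enzymes made up most of that sum, with alphaTry at 3020, Jon65Aiv at 2580 and betaTry at 1890 CPM in control replicate 1. The list of enterocyte identity genes went the other way, with 2832 CPM in control replicate 1 and 4606 CPM in control replicate 2. It summed to 4522 and 4593 CPM in knockdown replicates 1 and 2. Visceral muscle markers summed to between 1510 and 2030 CPM, enteroendocrine markers to between 129 and 182 CPM, and nerve markers to between 83.1 and 140 CPM. No marker of these types was at 0 in all libraries, nor was any of germline, haemocytes or trachea, and the cells that gave these reads were not tested. In bulk RNA, fewer cells of a type and less RNA per cell cannot be told apart.

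With FOXO knockdown, 66 genes differed from the control at an adjusted p under 0.05 (edgeR, two-sided), which is 0.571% of the genes tested. The 46 that rose (0.398%) included intestinal maltases, a pair of serine proteases, the vesicle protein gene Syt4 and the adhesion gene Dscam4. The 20 that fell (0.173%) included heat shock genes, pancreatic-type lipases and a pair of mitochondrial transcripts. The median size of the change was 1.27 on the log2 scale. Rounded to 2 decimals, the change was below 1 in size on that scale for 18 of the 66. Without the library term edgeR called 0 genes, 622 (5.38%) reached an unadjusted p under 0.05, and the lowest adjusted p was 0.152. DESeq2 without the term called 24 genes. With the term, leaving out knockdown replicate 2 gave 623 calls, 154 higher and 469 lower, and leaving out control replicate 1 gave 244, 138 higher and 106 lower. Scaled to total counts in place of TMM, 14 genes rose and 19 fell, so the excess of rises over falls depends on knockdown replicate 2 and on the scaling. Total counts moved the median of all genes from -0.03 to -0.27 on the log2 scale.

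**Figure D1:**
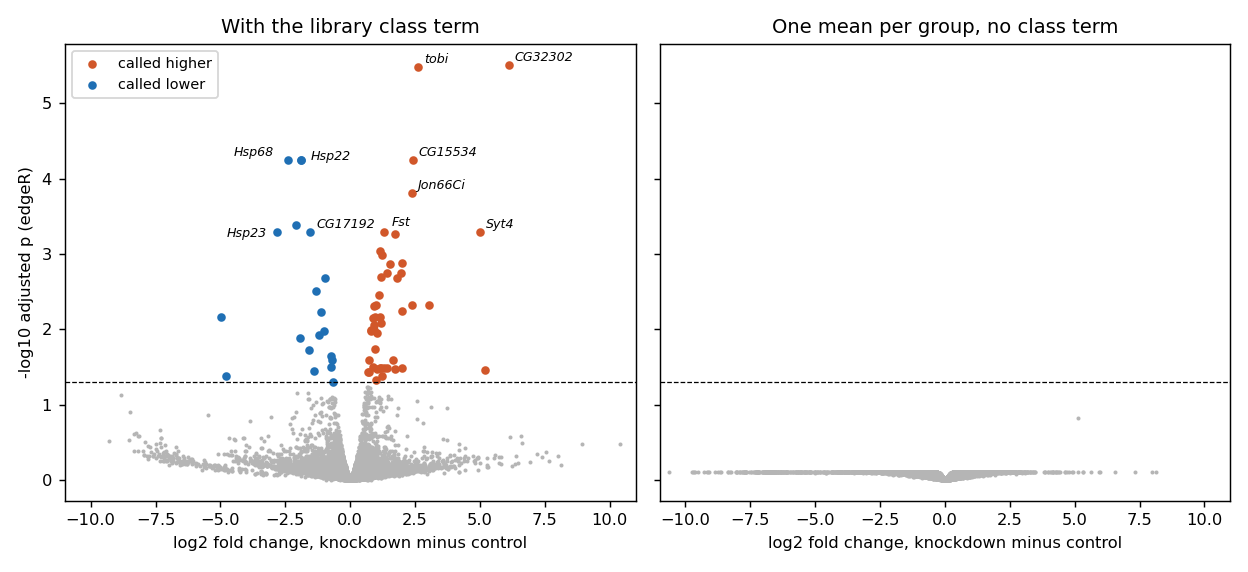
Fitted log2 fold change (knockdown minus control, x axis) against -log10 of the adjusted p from edgeR (y axis) for the 11561 genes tested with control mtDNA, with the library class term on the left and without it on the right. The dashed line is an adjusted p of 0.05, which 66 genes passed on the left and 0 on the right.

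Each call was set beside control replicate 2, which matched the knockdown libraries in rRNA share. Both knockdown libraries were above that library for 46 of 46 genes that rose and below it for 20 of 20 that fell, where 29.2% and 35.3% of all genes tested did so. That library is part of the fit, and the library term takes up the offset of control replicate 1, so the choice of genes nearly fixes these counts and nothing is read from them. Control replicate 1 was often on the other side. Both knockdown libraries lay above both controls for 31 of the 46 and below both for 16 of the 20, against 14.3% and 19.5% of all genes. The same libraries entered the choice of these genes, so the excess over all genes is not read as a result either. Control replicate 1 was above both knockdown libraries for 14 of the genes that rose. A fit of control replicate 2 and the 2 knockdown libraries alone, chosen after earlier results of these data were known, called 182 genes (1.66% of 10955), 112 higher (1.02%) and 70 lower (0.639%), and 64 of the 66 were among them in the same direction. The exceptions were LysX and snRNA:U4:39B. These libraries also entered the first fit, so the overlap is no independent check. In that fit the lone control is assumed to vary like the knockdown libraries.

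**Figure D2:**
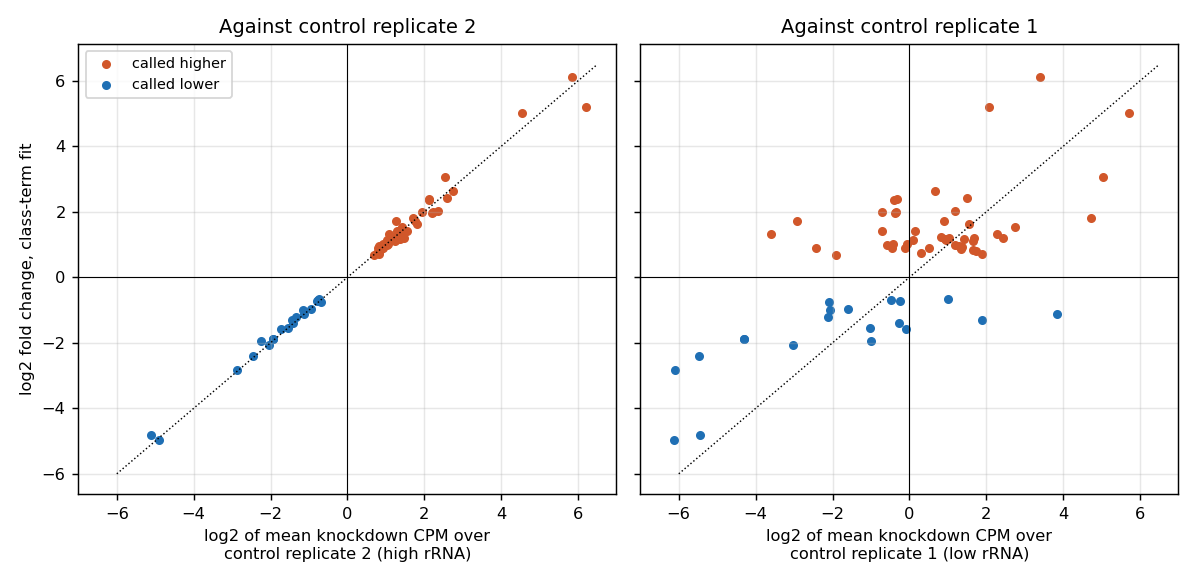
Fitted log2 fold change of the 66 called genes (y axis) against the log2 ratio of the mean knockdown level to control replicate 2 (left, x axis) and to control replicate 1 (right, x axis), with the line of equality dotted. On the left all 46 rises and 20 falls keep their sign, and on the right several rises lie left of 0.

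Among the 37 gene lists, the carbohydrate-digesting enzymes held the most rises. Of 25 tested, 7 rose and 0 fell, beside 0.398% and 0.173% of all genes, and the list's median change was 0.20 on the log2 scale (-0.03 over all genes). That median was -0.12 without the library term and -0.04 against control replicate 2 alone, so its sign depends on the fit. In the fit with the term, 10 of the 25 had a change below 0. The largest was tobi, an alpha-glucosidase gene named as a target of brain insulin. Its level was 106 and 25.0 CPM in control replicates 1 and 2 and 166 and 170 CPM in the knockdown libraries. Both knockdown libraries were above both controls, with a log2 change of 2.63 ± 0.14 (SE) and an adjusted p of 3.28e-06 (edgeR). Mal-A8, a maltase, was at 186 and 163 CPM in the controls and at 362 and 359 CPM with the knockdown. Its groups did not overlap either (log2 change 1.14 ± 0.12, adjusted p = 0.000899, edgeR).

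The neighbouring maltase genes gave smaller changes, and control replicate 1 overlapped the knockdown libraries in several of them. Mal-A2 was at 82.4 and 59.1 CPM in the controls and 106 and 96.7 CPM with the knockdown, without overlap (log2 change 0.74 ± 0.13). Mal-A7 was at 141 and 74.9 CPM against 130 and 131 CPM (0.91 ± 0.14), and Mal-A3 at 79.4 and 26.5 CPM against 56.0 and 49.5 CPM (0.99 ± 0.14). In both, control replicate 1 was the highest of the 4 libraries, and without the library term the change of Mal-A3 was -0.01. Mal-A4 (log2 change 1.03) and Gal, a beta-galactosidase (0.91), also rose past the threshold. Mal-A4 was at 83.6 and 42.1 CPM in the controls and 66.0 and 94.3 CPM with the knockdown. Gal was at 51.0 and 19.9 CPM against 36.3 and 38.8 CPM, and its change without the library term was 0.08. Mal-A1 was at 935 and 641 CPM in the controls and 938 and 1020 CPM with the knockdown, and its change of 0.68 ± 0.14 missed the threshold (adjusted p = 0.0573, edgeR). Summed enterocyte markers, mostly digestive enzymes themselves, were also highest in control replicate 1, where the summed enterocyte identity genes were lowest. The part of enterocyte RNA in these values was not tested.

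Among Jonah and trypsin-type serine proteases, which digest protein in the gut lumen, 2 of 35 rose and 1 fell. The shares over all genes were 0.398% and 0.173%. The list's median log2 change was 0.10, and -0.81 without the library term. Jon66Ci was at 58.1 and 10.1 CPM in the controls and 42.3 and 46.1 CPM with the knockdown (log2 change 2.37 ± 0.20, adjusted p = 0.000153, edgeR). Try29F was at 8.61 and 1.61 CPM against 5.74 and 8.17 CPM (2.38 ± 0.33). For both, the knockdown libraries stood above control replicate 2 and below control replicate 1. Jon99Fii moved the other way, from 573 and 218 CPM to 127 and 143 CPM (-0.74 ± 0.13), below both controls. Jon25Biii had the same order of levels, 1070 and 421 CPM against 278 and 281 CPM, and missed the threshold (-0.57, adjusted p = 0.0838, edgeR). LysX, a digestive lysozyme, was the 1 of 11 lysozyme genes to rise, from 17.7 and 9.30 CPM to 19.5 and 18.4 CPM (1.15 ± 0.21). The lysozyme list went the other way, with 8 of 11 fitted below 0 and a median log2 change of -0.68.

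Of 27 genes of fat digestion and storage, 0 rose and 2 fell, beside 0.398% and 0.173% of all genes. Both that fell are neighbouring lipases of the pancreatic type, and the list's median log2 change was -0.30. CG17192 was at 38.7 and 55.4 CPM in the controls and 17.8 and 20.3 CPM with the knockdown (log2 change -1.56 ± 0.16, adjusted p = 0.000506, edgeR). CG6295 was at 236 and 149 CPM against 81.1 and 74.5 CPM (-0.98 ± 0.12, adjusted p = 0.00208, edgeR). Neither group of libraries overlapped the other in these genes. The lipase genes CG8093 and CG6277 had fitted changes above 0, of 0.76 and 0.72, with adjusted p of 0.0694 and 0.0794 (edgeR).

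Heat shock genes were among the largest falls. These chaperones bind unfolded proteins, and Hsp22 works inside mitochondria. Of 9 small heat shock genes 2 fell and 0 rose, beside 0.173% and 0.398% of all genes, with a median log2 change of -1.17. Of 17 genes of the larger chaperones and their cofactors 1 fell, with a median of -0.30. Hsp23 was at 169 and 18.0 CPM in the controls and at 3.43 and 1.47 CPM with the knockdown. The knockdown libraries were below both controls, and the log2 change was -2.83 ± 0.28 (adjusted p = 0.000506, edgeR). Hsp68, of the Hsp70 family, went from 199 and 24.4 CPM to 3.67 and 5.23 CPM (-2.41 ± 0.18, adjusted p = 5.58e-05, edgeR), again without overlap.

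Hsp22 was at 183 and 35.2 CPM in the controls and at 8.40 and 10.0 CPM with the knockdown (log2 change -1.89 ± 0.15). CG4456, which overlaps it, had almost the same counts over all 8 libraries, 46409 against 46408, so these calls rest on the same reads. For Hsp26 the controls were at 105 and 8.51 CPM and the knockdown libraries at 5.92 and 2.68 CPM, and for Hsp27 at 22.2 and 9.78 CPM against 5.92 and 4.98 CPM. Both were lowest with the knockdown and missed the threshold (adjusted p of 0.169 and 0.213, edgeR). The low-rRNA control had by far the highest level of each of these genes, and the median of the small heat shock list was -3.57 without the library term. Against control replicate 2 alone, the log2 changes of Hsp23, Hsp68 and Hsp22 were -2.86, -2.45 and -1.93. The same libraries entered the first fit, so these values are no independent check.

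**Figure D3:**
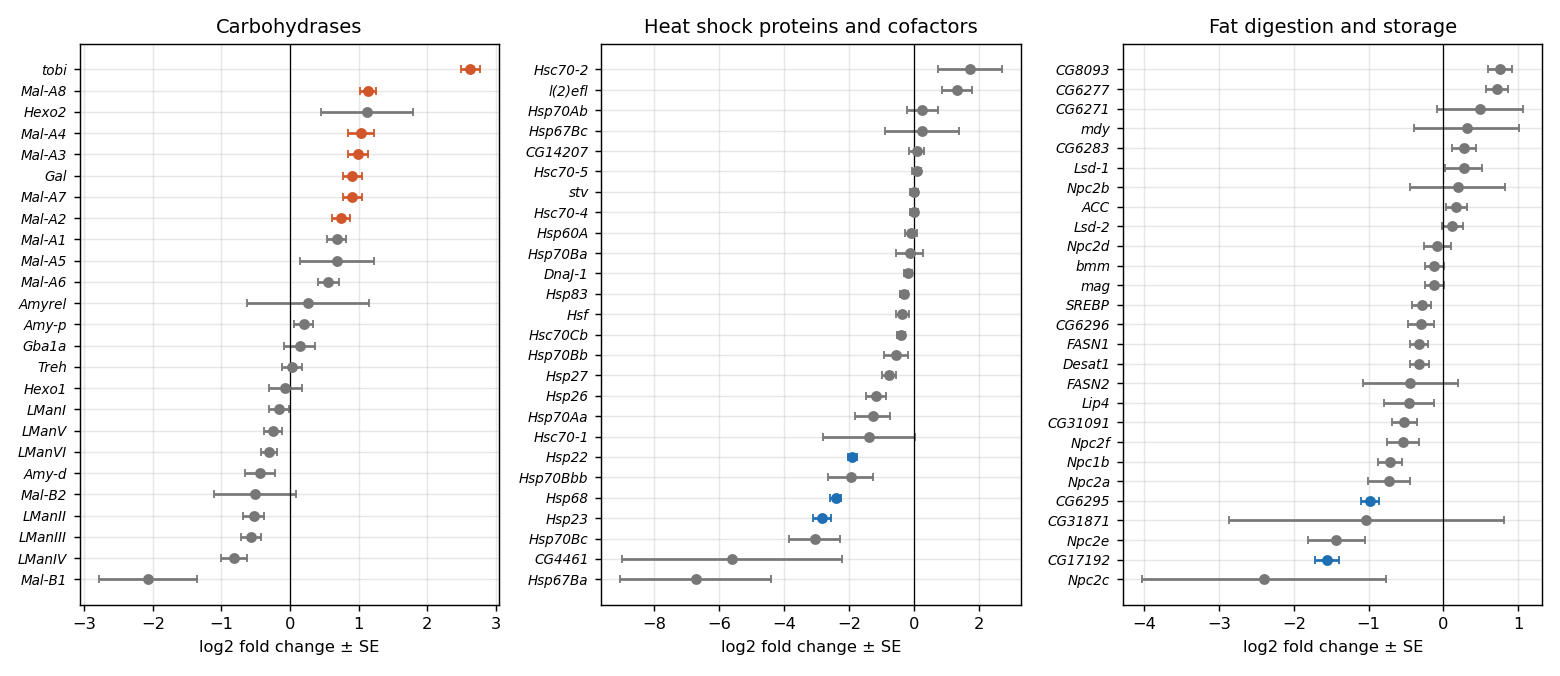
Fitted log2 fold change ± SE (x axis, knockdown minus control) for every tested member of the carbohydrase, heat shock and fat digestion lists, ordered by size, with called rises in orange, called falls in blue and genes that missed the threshold in grey. The 7 called carbohydrases all lie right of 0, and the called heat shock genes and lipases left of it.

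The largest relative rises were in genes with very low control levels. CG32302 was counted 235 and 7 times in the controls, which is 1.87 and 0.342 CPM, and 353 and 291 times with the knockdown, which is 20.9 and 18.6 CPM. All knockdown values were above both controls (log2 change 6.11 ± 0.31, adjusted p = 3.06e-06, edgeR). Its exons overlap yellow-g on the other strand, and the strand setting of the counting is not given in the sources used here, so their reads could not be separated. Syt4, a synaptotagmin that controls vesicle release at fly synapses, was at 0.239 and 0.538 CPM in the controls and at 14.4 and 10.5 CPM with the knockdown. These groups were far apart, with 30 and 11 reads against 244 and 165 (log2 change 5.02 ± 0.51, adjusted p = 0.000506, edgeR). It was the 1 of 24 genes of nerve and vesicle release to rise, beside 0.398% of all genes. Sytalpha had a change of -1.64 with an adjusted p of 0.0694 (edgeR).

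Dscam4, a cell adhesion molecule of the immunoglobulin family, was at 0.422 and 2.35 CPM in the controls and 12.5 and 15.1 CPM with the knockdown (log2 change 3.05 ± 0.42). CG15534, annotated as an acid sphingomyelinase, was at 16.7 and 7.78 CPM against 45.4 and 48.2 CPM (2.43 ± 0.19, adjusted p = 5.58e-05, edgeR). Fst, a gene named Frost for its induction after cold, was at 25.7 and 47.4 CPM against 128 and 121 CPM (1.32 ± 0.13, adjusted p = 0.000506, edgeR). In these 3 genes both knockdown libraries exceeded both controls. The same held for CG10514 (log2 change 1.53), CG4835 (1.80) and CG18404 (1.73).

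Of 25 enteroendocrine genes, 1 rose and 0 fell, beside 0.398% and 0.173% of all genes. NPF, which encodes the gut and brain hormone neuropeptide F, was at 3.53 and 1.57 CPM in the controls and 7.40 and 8.68 CPM with the knockdown (log2 change 2.01 ± 0.37, adjusted p = 0.0323, edgeR). The groups did not overlap, and summed enteroendocrine markers were 129 and 165 CPM against 166 and 182 CPM. CCHa2, another peptide hormone gene, was at 13.6 and 18.5 CPM against 4.79 and 10.3 CPM and missed the threshold (-1.43, adjusted p = 0.0997, edgeR).

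**Figure D4:**
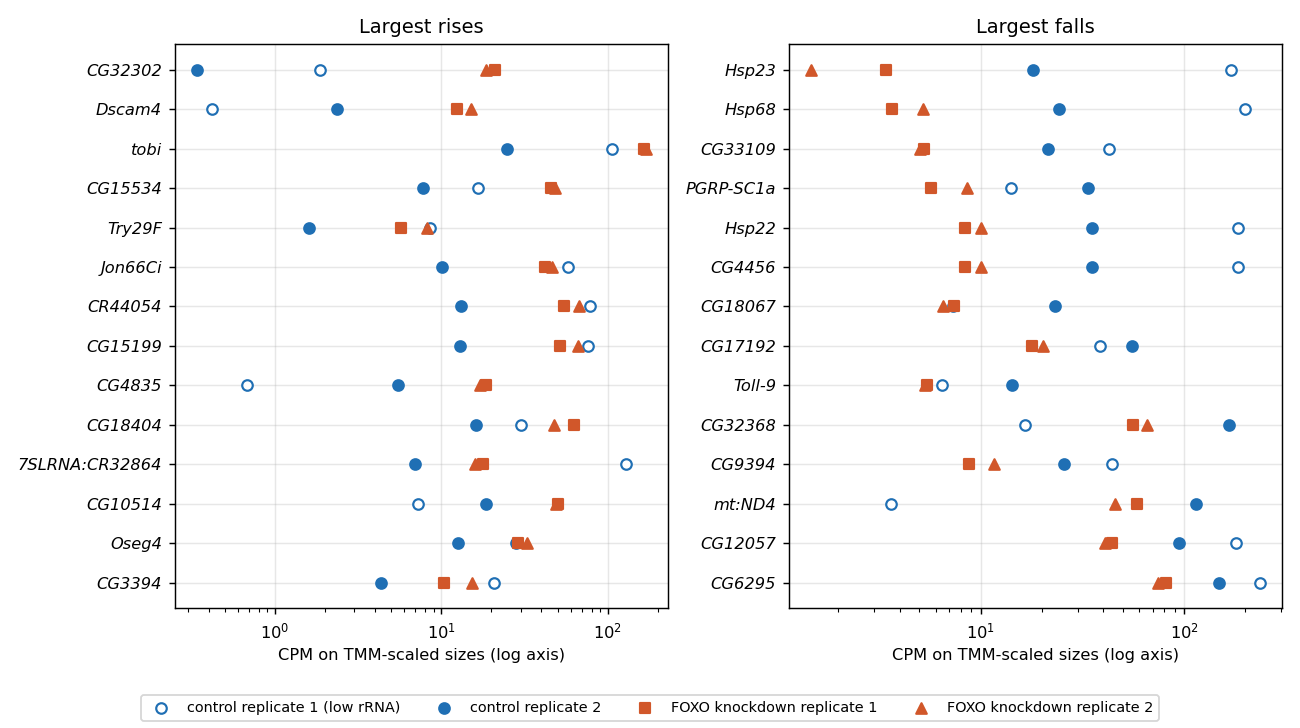
Level in each of the 4 libraries (x axis, CPM on TMM-scaled library sizes, log axis) of the 14 largest rises and 14 largest falls among called genes whose average log2 CPM was 3 or more (y axis). Control replicate 2 lies below both knockdown libraries for every rise and above them for every fall, which the naming rule fixes. Knockdown replicates 1 and 2 mostly lie close together, though Hsp23 was at 3.43 and 1.47 CPM. The test favours genes whose replicates agree, so nothing is read from that closeness. Control replicate 1 lies beyond the knockdown libraries for several rises, such as Jon66Ci and 7SLRNA:CR32864.

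In the peptidoglycan recognition list 1 of 11 genes was called (9.09%), beside 0.571% of all genes tested. PGRP-SC1a, an amidase that degrades bacterial peptidoglycan, was at 14.1 and 33.8 CPM in the controls and 5.68 and 8.55 CPM with the knockdown (log2 change -1.94 ± 0.31, adjusted p = 0.0132, edgeR). It was the 1 of 11 peptidoglycan recognition genes to fall past the threshold. Fitted changes were below 0 for 7 and above 0 for 4, with a median of -0.40. PGRP-SC1b was at 14.1 and 15.4 CPM against 7.99 and 6.32 CPM and missed the threshold (-0.91, adjusted p = 0.222, edgeR). Of 16 genes of the antimicrobial and Imd list 0 were called, from which nothing is read at the share over all genes. The receptor gene Toll-9 was at 6.47 and 14.2 CPM against 5.44 and 5.30 CPM (-1.39 ± 0.26). For PGRP-SC1a, PGRP-SC1b and Toll-9 the knockdown libraries were below both controls. The cell death activator rpr was counted 699 and 90 times in the controls and 0 and 4 times with the knockdown (adjusted p = 0.0422, edgeR). The caspase gene Damm moved the other way, from 55.7 and 119 CPM to 201 and 214 CPM (0.72 ± 0.14).

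Other falls belonged to none of the lists described so far. CG6324 was counted 1684 and 117 times in the controls and 0 and 6 times with the knockdown (adjusted p = 0.00686, edgeR). CG33109 was at 42.5 and 21.4 CPM in the controls and at 5.27 and 5.04 CPM with the knockdown (log2 change -2.08 ± 0.20, adjusted p = 0.000415, edgeR). Gs2, a glutamine synthetase, was at 112 and 134 CPM against 80.4 and 78.3 CPM (-0.70 ± 0.12), and the putative aminopeptidase CG31233 at 303 and 444 CPM against 254 and 260 CPM (-0.72 ± 0.13). CG12057 and CG9394 fell by 1.00 and 1.21 on the log2 scale. In these 6 genes the knockdown libraries were below both controls. For CG32368 they were not: control replicates 1 and 2 were at 16.5 and 166 CPM and the knockdown libraries at 56.1 and 65.5 CPM between them (-1.30 ± 0.17).

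Transcripts of the mitochondrial genome encode core subunits of the respiratory chain. Of 13 tested, 0 rose and 2 fell, beside 0.398% and 0.173% of all genes. All 13 had a fitted change below 0, and the median was -0.45 on the log2 scale. Without the library term the median was 0.31, so the direction of the group turns with that term. Cytochrome oxidase subunit mt:CoI was at 452 and 1510 CPM in the controls and 921 and 888 CPM with the knockdown (log2 change -0.67 ± 0.13, adjusted p = 0.0496, edgeR). The complex I subunit mt:ND4 was at 3.61 and 114 CPM against 58.5 and 45.8 CPM (-1.12 ± 0.16, adjusted p = 0.00593, edgeR), and mt:ND1 at 6.87 and 2740 CPM against 1570 and 1550 CPM (-0.69, adjusted p = 0.0801, edgeR). In all 3 the knockdown libraries lay between the controls. Among nuclear genes of the chain, 0 of 36 for complex I and 0 of 36 for complexes II to V were called. Over all genes tested 0.571% were, so nothing is read from these counts of 0.

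Within the insulin, FOXO and TOR pathway, 1 of 34 genes rose (tobi, also counted as a carbohydrase) and 0 fell. The shares over all genes were 0.398% and 0.173%, and the list's median log2 change was -0.12. Thor was at 43.8 and 120 CPM in the controls and 147 and 154 CPM with the knockdown. InR was at 67.3 and 123 CPM against 112 and 121 CPM. For Thor both knockdown libraries were above both controls, and for InR they lay between the controls. The fitted changes of 0.12 and -0.13 had adjusted p of 0.850 and 0.773 (edgeR). Without the library term the changes of Thor and InR were 0.87 and 0.29. The kinase gene S6k, which promotes translation, had a change of -0.39 (adjusted p = 0.283), and the insulin-like peptide gene Ilp3 one of -2.23 ± 0.58 (adjusted p = 0.152, edgeR). The small heat shock gene l(2)efl, a FOXO target in other fly tissues, was at 17.6 and 1.08 CPM in the controls and 5.32 and 4.08 CPM with the knockdown, between them (1.32 ± 0.46, adjusted p = 0.360, edgeR).

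The edgeR calls all rest on the library term, since 0 genes were called without it. DESeq2 without the term called 24 genes, of which 16 were among the 66 in the same direction. Of the 66 genes, 52 also differed between the low-rRNA and high-rRNA libraries, against 30.3% of all genes tested. In 5 the change was of the other sign without the term: 7SLRNA:CR32864, the RNA of the signal recognition particle, snRNA:U4:39B, a splicing RNA, RNaseMRP:RNA, CG34330 and Mal-A3. The first was at 129 and 7.00 CPM in the controls and 17.9 and 15.9 CPM with the knockdown, and called a rise (log2 change 1.72 ± 0.32). In all 5, control replicate 1 stood above both knockdown libraries. The exons of 16 called genes overlap those of another gene, among them CG15199 with CR44054 and Gal with CR43866, each pair on opposite strands and both called.

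No gene was called in the lists of progenitor markers (17 genes), DNA replication and mitosis (43), enterocyte identity (12), visceral muscle (25), ER chaperones (21), glycolysis and the TCA cycle (26), antioxidant genes (26), glutathione S-transferases (32) or cytochrome P450 genes (77). Their medians ran from -0.23 to 0.15 on the log2 scale. The 83 cytosolic ribosomal protein genes had a median of 0.14 and 0 calls. That median was -0.97 without the library term. Over all genes tested 0.571% were called, so nothing is read from 0 calls in lists of these sizes.

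The same knockdown on mutant mtDNA served to ask which responses differed with the mitochondrial genome. The fits for both backgrounds share the estimate of the library term. With mutant mtDNA, 29 of the 66 genes also passed the threshold, as did 1.9% of all genes tested. Since the estimate of the library term is common to both fits, that overlap is given as a count only. Syt4 was at 0.288 and 0.178 CPM without and 6.96 and 6.95 CPM with the knockdown (log2 change 4.55), and Hsp68 at 204 and 21.9 CPM against 3.60 and 3.59 CPM (-2.66). CG15534 was at 18.8 and 12.6 CPM against 53.6 and 55.7 CPM (2.25). In libraries with a high rRNA share alone, which needs no term and shares no library between backgrounds, 79 of the 112 genes called higher against control replicate 2 (70.5%) had both mutant knockdown libraries above the high-rRNA mutant library, as did 37.3% of all genes. Of the 70 called lower, 47 (67.1%) had both below it, as did 36.8% of all genes.

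The test of the difference between backgrounds called 59 genes (0.51% of those tested), of which 13 were among the 66. The rise of tobi was smaller with mutant mtDNA, where its level was 311 and 97.0 CPM without and 169 and 173 CPM with the knockdown (log2 change 0.91, difference -1.72 ± 0.17, adjusted p = 0.00377, edgeR). Fst was already at 80.1 and 178 CPM without the knockdown and at 148 and 146 CPM with it (-0.21, difference -1.53, adjusted p = 0.00402, edgeR). CG33109, which fell on control mtDNA, was at 17.3 and 9.36 CPM without and 9.54 and 9.03 CPM with it (0.02, difference 2.10, adjusted p = 0.00648, edgeR). For tobi and Fst, each mutant library without the knockdown was above the control library of the same rRNA class. Without the library term 0 genes were called by edgeR for the difference and 215 had an unadjusted p under 0.05, and DESeq2 with the term called 281.

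**Figure D5:**
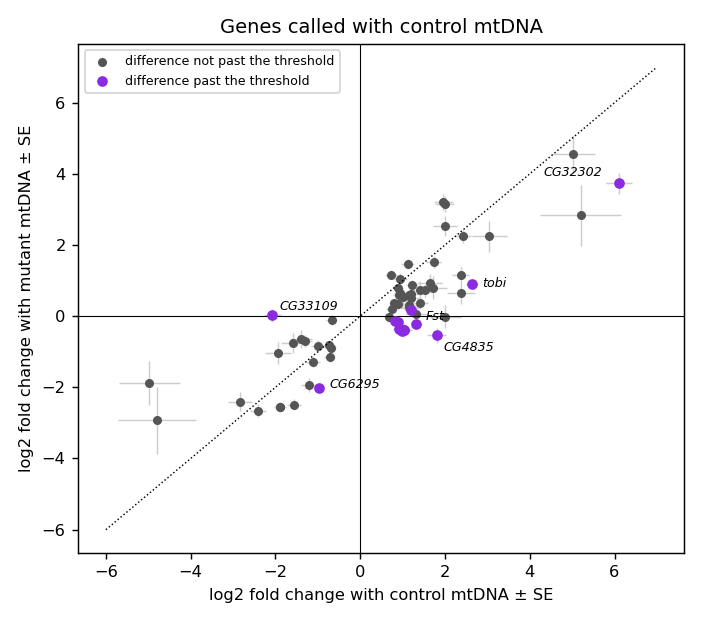
Log2 fold change ± SE for FOXO knockdown with mutant mtDNA (y axis) against that with control mtDNA (x axis) for the 66 genes called with control mtDNA, with the line of equality dotted and the 13 genes whose difference passed the threshold in purple. Syt4 and the heat shock genes lie near the line, and tobi, Fst and CG4835 lie below it.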

How the data were processed

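RNA sequencing was done in duplicate for 4 groups of flies. The authors deposited raw read counts per gene, whole numbers with FlyBase identifiers, for all 8 libraries. The submitters' processing notes name FastQC, cutadapt, HISAT2, featureCounts and limma. Their settings, the genome build, the annotation, the strand setting and the handling of reads shared by genes are not given in the sources used here, so no coordinates or sequences are given. An Ensembl annotation matched 17331 of 17473 identifiers and served only for biotypes and exon overlaps. Nuclear rRNA genes were those with rRNA in their deposited gene name, leaving out mitochondrial ones.

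Counts were fitted with edgeR 4.0.16 (R 4.3.3), with genes kept by filterByExpr, TMM scaling, 1 mean per group over all 8 libraries and a term for rRNA share above or below 50%. The quasi-likelihood test used this version's default, and its other method is an alternative. p-values were two-sided and adjusted by the Benjamini-Hochberg method over all 11561 genes tested, with a threshold of 0.05. CPM use TMM-scaled library sizes. Total counts ran from 21133996 to 39327066 in the 4 libraries compared. Replicates differed by more than counting noise, with a median squared deviation of 15.9 in the controls and 4.15 with the knockdown, where 0.455 was the noise value. Outside rRNA genes, log2 CPM of knockdown replicates 1 and 2 correlated at 0.9087 over 11538 genes. Knockdown replicate 1 correlated at 0.9007 with control replicate 2, and knockdown replicate 2 at 0.9472. Library-term estimates and code were tested on simulated data. Alternatives were other scalings, filters, tools (DESeq2 1.42.0), a continuous rRNA term, no term, a replicate block and leaving out each library.

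Genes were named by rule: called genes whose average log2 CPM was 3 or more, with both knockdown libraries on the called side of control replicate 2, the 14 largest rises and 14 largest falls, plus foxo, Thor, InR, Syt4, CG33109 and up to 4 genes of each of 37 lists. Other genes were named after their values were seen. The comparison and lists were chosen with earlier results of these data known.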

Additional observations from a re-analysis of the deposited data

Results flagged for a closer look

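In 13 of the 66 genes called with control mtDNA, the response to FOXO knockdown differed between mtDNA backgrounds in edgeR's test of the difference. Values are the log2 change with mutant mtDNA minus that with control mtDNA. The difference was -2.38 for CG32302, which rose in both backgrounds, and -1.72 for tobi. It was -2.33 for CG4835 and -1.53 for Fst, which were called higher with control mtDNA and had fitted changes below 0 with mutant mtDNA. The maltase genes Mal-A3 and Mal-A4 each differed by -1.42, Gal by -1.28 and the overlapping CR43866 by -1.41. CG34330 differed by -1.06, CG8661 by -1.02 and CG3091 by -0.95. The lipase gene CG6295 fell further with mutant mtDNA, with a difference of -1.04. CG33109 fell with control mtDNA and had a fitted change of 0.02 with mutant mtDNA, a difference of 2.10. None of these differences passed the threshold without the library term. Each group without the knockdown held 1 low-rRNA and 1 high-rRNA library, so a library offset shared by both largely cancels in the difference. How far the term sets each value was not tested gene by gene.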

How the results depend on the processing

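The count of genes called for the knockdown, 66, was 58 with the logit of the rRNA share as the term, 65 with RLE scaling, 80 with rRNA genes removed, 71 at 5 CPM or more in 2 libraries and 80 with edgeR's other quasi-likelihood method. It was 36 and 131 at thresholds of 0.01 and 0.1. It moved to 236 in the 6 high-rRNA libraries, 182 in control replicate 2 and the knockdown libraries alone (added later), 278 without a filter, 200 with DESeq2 and 33 with total counts. It was 0 without the term, also in the control and knockdown libraries alone, and 24 with DESeq2 without the term. Leaving out single libraries gave 65 to 623 calls. The highest count came without knockdown replicate 2, and of those 623 genes 469 were lower. Without control replicate 2 there were 171 calls, of which 45 were among the 66, and without control replicate 1 there were 244. Leaving out either mutant replicate raised it as well, to at most 272, and leaving out mutant knockdown replicate 1 or 2 gave 103 or 117. Leaving out single libraries without the term gave 0 to 3. The count for the difference between backgrounds, 59, was 25 with the logit term, 188 in the high-rRNA libraries, 271 without a filter, 281 with DESeq2, 103 with the other quasi-likelihood method, 0 without the term or with total counts, and 45 to 510 when single libraries were left out. Without the term the sign turned for 7SLRNA:CR32864 (-2.01), snRNA:U4:39B (-2.66), RNaseMRP:RNA (-1.13), CG34330 (-1.57) and Mal-A3 (-0.01), and among genes that missed the threshold for InR (0.29), l(2)efl (-1.01) and mt:ND1 (0.19). Thor turned to -0.05 with the logit term, -0.13 with total counts and between -0.45 and 0.32 when single libraries were left out, lowest without control replicate 2. The cause was not tested. The foxo change stayed between -0.53 and -0.07 and never passed the threshold. Deviations of same-numbered control and knockdown libraries had a correlation of -0.0374 over 11538 genes. It was 0.675 between the control and mutant groups, whose replicates 1 are both low in rRNA, and between -0.0184 and -0.000569 for the other pairs of groups. Control replicates differ in rRNA share and knockdown replicates hardly do, so the value of -0.0374 cannot tell whether replicates were paired. With the replicate number as a block 60 genes were called, of which 52 were among the 66. Depth outside rRNA was lowest in the knockdown libraries, at 4103725 and 4340214 counts, which limits genes near the floor.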

Other observations

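Against control replicate 2 alone, a comparison free of the library term but with a single control, 118 further genes passed edgeR's threshold, beyond those called with the term. The median log2 change there was -0.04 for 25 carbohydrases and 0.05 for 35 Jonah and trypsin-type proteases, beside 0.0 over all genes. Mal-A1 (log2 change 0.62) and Mal-A6 (0.43) joined the maltases that were higher, and Jon25Biii (-0.58) and Jon25Bii (-0.71) joined Jon99Fii among the proteases that were lower. For 13 mitochondrial transcripts the median was -0.49, with mt:ND1 at -0.80. For 25 visceral muscle genes it was 0.27. Summed visceral muscle markers were 1510 CPM in control replicate 2 and 1820 CPM in each knockdown library, and 2030 CPM in the low-rRNA control.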
